A study of Homo sapiens with 6 samples.

Results

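The human mitochondrial genome is a small circular DNA, and all of its annotated genes were taken from the deposited count table: the 37 of 58735 rows placed on chromosome MT. They comprise 13 protein-coding genes, 2 ribosomal RNA (rRNA) genes and 22 transfer RNA (tRNA) genes. Of these rows, 28 are read in the same direction as the reference and are parts of the heavy-strand transcript, and 9 are read in the other direction and are parts of the light-strand transcript. The position and strand of all 37 equalled those of GENCODE release 29 (GRCh38). Gene counts from RNA-seq were set against each other for 3 libraries of Huh7 cells with a short hairpin RNA against ITGB5 (shITGB5), the integrin beta 5 subunit, and 3 libraries of Huh7 cells with a control hairpin (shcontrol). Huh7 is an established human hepatocellular carcinoma line. Both groups were grown in RPMI-1640 with fetal bovine serum, and libraries were made from total RNA with a directional kit. The sources used here give neither the hairpin sequences nor whether the cells were pools or clones. They also leave unsaid whether libraries of 1 group were separate cultures, so each p-value refers only to the spread among libraries, part or all of which may be technical.

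The proteins of this genome are core subunits of the respiratory chain and of ATP synthase, and its rRNAs and tRNAs serve the mitochondrial ribosome that makes them. Both strands are transcribed by the polymerase POLRMT into long RNAs that run through many genes. tRNAs sit between most of the other genes, and cutting them out at their ends frees the rRNAs and mRNAs, so the steady levels of neighbouring RNAs can differ although they were copied together. The light-strand transcript holds a single mRNA, MT-ND6, and 8 tRNAs. Liver cells are rich in mitochondria.

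The tRNA genes MT-TA, MT-TN, MT-TC and MT-TY lie side by side on the light strand, and their sequences are shown because the tRNA changes described below fell among them. The sequences are given 5′ to 3′ as DNA letters from GENCODE 29 transcripts, on the minus strand of chromosome MT (GRCh38), with the anticodon in capitals.
MT-TA, MT:5587-5655: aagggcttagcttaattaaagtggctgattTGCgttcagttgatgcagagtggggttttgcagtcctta
MT-TN, MT:5657-5729: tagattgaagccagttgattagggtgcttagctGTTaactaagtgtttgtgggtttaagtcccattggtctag
MT-TC, MT:5761-5826: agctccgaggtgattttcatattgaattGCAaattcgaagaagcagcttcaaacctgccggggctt
MT-TY, MT:5826-5891: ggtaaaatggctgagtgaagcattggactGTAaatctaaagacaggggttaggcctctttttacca
They carry alanine, asparagine, cysteine and tyrosine. MT-TN and MT-TC are separated by 31 bases, a stretch known to hold the origin of light-strand replication, and MT-TC and MT-TY share 1 base.

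The protein-coding genes also overlap, and the longer overlaps are shown because counts of the members there cannot be fully separated. MT-ATP8 and MT-ATP6 share 46 bases, MT-ND4L and MT-ND4 share 7, and MT-ATP6 and MT-CO3 share 1, all on the plus strand of chromosome MT (GRCh38). In the stretches below, taken from the same transcripts, the first capitals are the start codon of the downstream gene and the last capitals are the stop codon of the upstream gene.
MT-ATP8 and MT-ATP6, MT:8527-8572: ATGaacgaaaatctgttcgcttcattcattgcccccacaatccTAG
MT-ND4L and MT-ND4, MT:10760-10766: ATGcTAA

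The libraries held 16563911 to 18011313 counts with the ITGB5 hairpin and 15777922 to 17476580 with the control. ITGB5 itself, the check of the labels, was 173.1, 181.0 and 174.3 CPM (counts scaled to a common library total with edgeR's TMM factors) under the ITGB5 hairpin and 204.7, 213.8 and 216.9 CPM in the controls. The groups did not overlap, and the log2 change was -0.27 (SE 0.032, edgeR adjusted p = 2.13e-09, exact permutation p = 0.1, two-sided, the smallest possible with 3 libraries in each group). The ITGB5 level thus fell by only 16.8%, and the median absolute log2 change of all genes that passed the test was 0.22. Hepatocyte and hepatoma markers ranged widely in level, and 6 of 9 rose. ALB lay at 3220 to 3289 CPM with the ITGB5 hairpin and 2826 to 2910 CPM in the controls. APOA1 lay at only 34.6 to 39.2 against 27.5 to 30.5 CPM, and TTR at 13.2 to 15.9 against 8.23 to 9.52 CPM. SERPINA1, KRT8 and KRT18 did not pass, with KRT8 at 4530 to 4659 against 4486 to 4569 CPM. Summed markers of fibroblasts and stellate cells lay at 323.8 to 333.4 CPM with the ITGB5 hairpin and 289.5 to 303.4 CPM in the controls (1 of 5 tested rose, LUM). Most of this sum was LUM and COL1A2, and DCN and ACTA2 were too low to be tested. Endothelial markers summed to 4.18 to 5.51 against 3.55 to 5.63 CPM, with KDR at 0 in every library, and blood and immune markers to 6.57 to 7.04 against 6.48 to 7.63 CPM. Nearly all of the endothelial sum was PECAM1 (3.95 to 5.28 against 3.55 to 5.63 CPM). LYZ made up most of the blood and immune sum (6.07 to 6.48 against 6.19 to 7.40 CPM).

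Mitochondrial RNA as a whole took a smaller part of the libraries with the ITGB5 hairpin. Mitochondrial genes took 3.29%, 3.24% and 3.29% of all counts under the ITGB5 hairpin and 3.54%, 3.49% and 3.46% in the controls. The groups did not overlap, and the percent change of the mean share was -6.35%. The difference lay in mRNA: protein-coding genes took 2.89% ± 0.018 of all counts with the ITGB5 hairpin and 3.12% ± 0.034 in the controls (SD, n = 3 each). The rRNAs took 0.370% ± 0.011 and 0.363% ± 0.0025, with overlapping groups, and the tRNAs 0.0132% ± 0.0010 and 0.0122% ± 0.00033, also overlapping. Within the mitochondrial counts, the share of rRNA was higher, at 11.06% to 11.57% with the ITGB5 hairpin and 10.35% to 10.45% in the controls. The share of tRNA was also higher, at 0.373% to 0.426% against 0.342% to 0.363%. In bulk RNA, fewer cells of a kind and less RNA per cell cannot be told apart. Each share and CPM is relative to the library total, so more RNA from other genes cannot be told apart from these either. Other measures moved along with the share. Counts on lincRNA, antisense and sense intronic genes were 0.792% to 0.805% of the total with the ITGB5 hairpin and 0.840% to 0.848% in the controls. The number of genes above 0 was 25856 to 26143 against 26795 to 26976, and the part of these measures, or of the marker sums above, in the result was not tested.

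**Figure D1:**
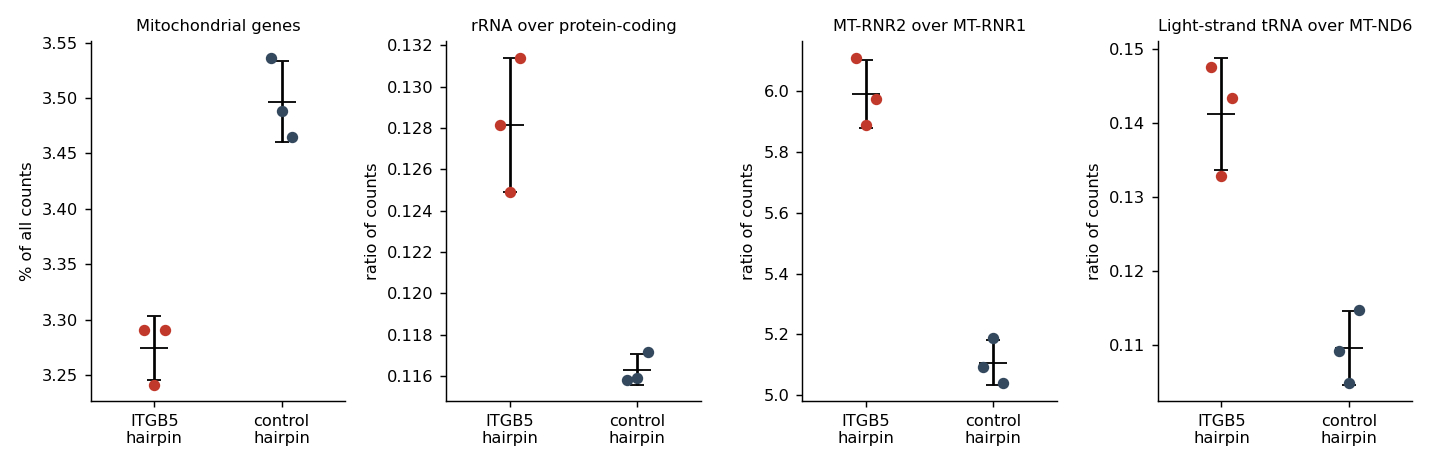
Share of all counts on mitochondrial genes (%), and 3 ratios of summed counts, in each library (points) with group mean and SD (bars, n = 3 each); the vertical axes do not start at 0. The mitochondrial share was lower in all 3 ITGB5 hairpin libraries (3.24% to 3.29%) than in the controls (3.46% to 3.54%), and the 3 ratios were higher in all 3.

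Of the 37 mitochondrial genes, 27 had enough counts to be tested, and 13 of these changed: 10 fell and 3 rose (edgeR quasi-likelihood test, Benjamini-Hochberg adjusted over all 16577 genes tested, threshold 0.05). Among all genes tested, 15.1% passed the threshold, 6.74% as falls and 8.31% as rises. Mitochondrial mRNAs are abundant, and abundant genes pass more readily: of 4007 nuclear genes at or above the control level of the least abundant mitochondrial mRNA (62.8 CPM), 33.1% passed, 15.8% as falls and 17.3% as rises. That level is the one of MT-ATP8, and the other mRNAs had control means of 270 to 8145 CPM. Only a lower limit was set, so these nuclear genes were not matched to the mRNAs in level. By class, 9 of 13 mRNAs fell and none rose, 1 of 2 rRNAs fell and the other rose, and 2 of 12 tested tRNAs rose and none fell. The other 4 mRNAs and 10 tested tRNAs did not pass. The levels of 10 of 13 mRNAs were lower with no overlap between the groups and none was higher without overlap. Among the 4007 abundant nuclear genes the groups did not overlap for 47.4% (23.6% lower, 23.8% higher), and among all genes tested for 28.5% (13.8% lower, 14.7% higher). The median log2 change was -0.13 over the 13 mRNAs, beside -0.0019 over the 4007 abundant nuclear genes. All changes were small, with log2 changes between -0.21 and 0.33 among the 13 genes that passed.

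**Figure D2:**
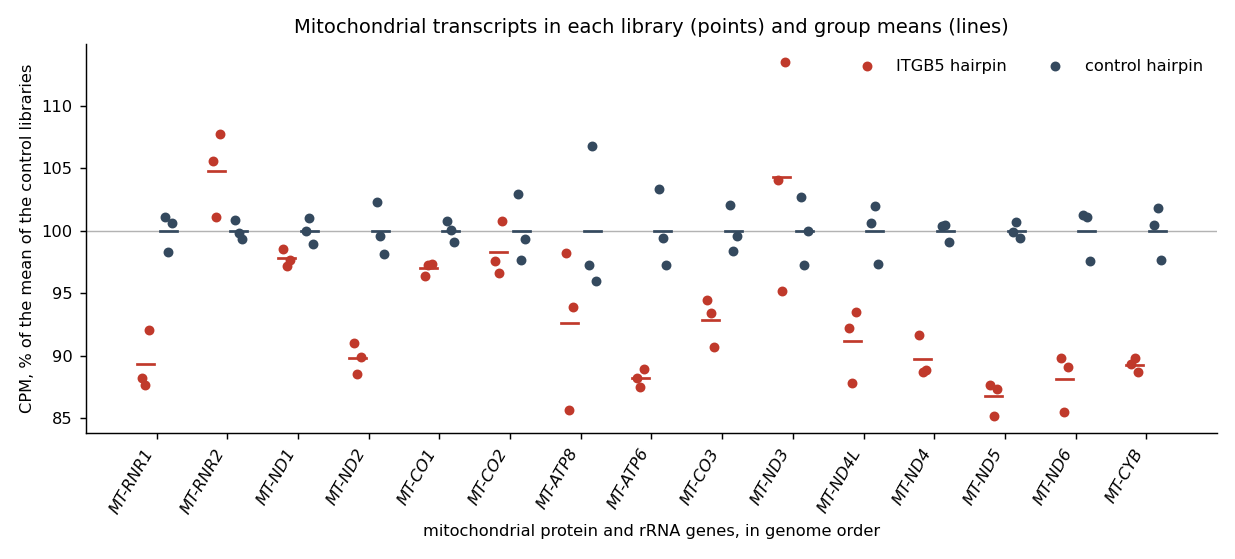
Level of each of the 15 mitochondrial mRNAs and rRNAs in each library, as CPM in percent of the mean of the control libraries, in genome order; points are libraries and short lines group means. The ITGB5 hairpin points lie below all control points for MT-RNR1 and 10 mRNAs, and above them for MT-RNR2.

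Positions below are on chromosome MT of GRCh38, where MT-ND6 is on the minus strand and the other mRNAs and both rRNAs on the plus strand. Complex I, which passes electrons from NADH to ubiquinone, has 7 subunits encoded here, and 5 of their mRNAs fell. MT-ND5 (MT:12337-14148), a proton-pumping subunit at the far end of the membrane arm, fell most among the mitochondrial genes that passed. It lay at 2257, 2193 and 2249 CPM with the ITGB5 hairpin and at 2572, 2592 and 2559 CPM in the controls. The groups were far apart relative to their spread, and the level fell by 13.2% (log2 change -0.21, SE 0.019, edgeR adjusted p = 1.65e-13). MT-ND4 (MT:10760-12137), a further proton-pumping subunit, lay at 4369, 4227 and 4235 CPM against 4782, 4787 and 4722 CPM in the controls (-0.16, edgeR adjusted p = 1.59e-10). MT-ND2 (MT:4470-5511), the third of these pumps, lay at 1299, 1264 and 1284 CPM against 1460, 1421 and 1401 CPM in the controls (-0.15, edgeR adjusted p = 3.37e-08). For both, every ITGB5 hairpin library was below every control.

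The other heavy-strand complex I subunits differed among themselves. MT-ND4L (MT:10470-10766), which shares its last bases with the start of MT-ND4, lay at 783.8, 746.5 and 794.4 CPM with the ITGB5 hairpin and at 855.5, 866.4 and 827.5 CPM in the controls (-0.13, edgeR adjusted p = 1.56e-05). The ratio of MT-ND4 to MT-ND4L counts overlapped between the groups, at 5.33 to 5.66 with the ITGB5 hairpin and 5.53 to 5.71 in the controls. MT-ND1 (MT:3307-4262), the subunit next to the ubiquinone site, did not pass, at 770.1, 759.9 and 763.4 CPM against 781.6, 789.8 and 773.4 CPM (-0.032, 95% interval -0.076 to 0.012, edgeR adjusted p = 0.396), although its groups did not overlap. MT-ND3 (MT:10059-10404) did not pass either, at 281.1, 257.1 and 306.7 CPM against 277.4, 262.7 and 270.1 CPM (0.061, 95% interval -0.0081 to 0.13, edgeR adjusted p = 0.271). The value of MT-ND3 turned on single libraries: it was 0.12 (edgeR adjusted p = 0.00365) without shITGB5 replicate 2 and -0.0048 without shITGB5 replicate 3.

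MT-ND6 (MT:14149-14673), the complex I subunit encoded on the light strand, fell like its heavy-strand neighbours. It lay at 811.8, 772.9 and 805.5 CPM with the ITGB5 hairpin and at 915.0, 913.9 and 882.2 CPM in the controls, with no overlap (-0.18, SE 0.023, edgeR adjusted p = 5.78e-09). The ratio of MT-ND6 to MT-ND5 counts, next to each other on opposite strands, was 0.352 to 0.360 with the ITGB5 hairpin and 0.345 to 0.356 in the controls, and these ranges overlapped. How the counting treated strand is not stated, so reads from the opposite strand cannot be told apart at MT-ND6 or at the light-strand tRNAs.

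The mRNA of MT-CYB (MT:14747-15887), cytochrome b, the only complex III subunit encoded here, fell. It lay at 2037, 2049 and 2022 CPM with the ITGB5 hairpin and at 2292, 2322 and 2228 CPM in the controls (-0.16, edgeR adjusted p = 8.54e-10). The groups did not overlap. It is the last mRNA of the heavy-strand transcript.

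Complex IV, cytochrome c oxidase, has its 3 catalytic core subunits encoded here, and 2 of their mRNAs fell. MT-CO1 (MT:5904-7445), which carries the site where oxygen is reduced, was the most abundant mitochondrial RNA in counts, at 7853, 7921 and 7929 CPM with the ITGB5 hairpin and 8211, 8151 and 8072 CPM in the controls. It fell (-0.044, SE 0.016, edgeR adjusted p = 0.0452). This call was near the threshold: it was lost without shITGB5 replicate 1 or 3 and without shcontrol replicate 1 or 2 (edgeR adjusted p = 0.0942, 0.0740, 0.183 and 0.0957), with the replicate number as a block (0.118) and with no filter on low counts (0.239). MT-CO2 (MT:7586-8269), which takes electrons from cytochrome c, did not pass, at 3371, 3337 and 3483 CPM against 3557, 3375 and 3433 CPM (-0.024, 95% interval -0.062 to 0.014, edgeR adjusted p = 0.470). Its groups overlapped. MT-CO3 (MT:9207-9990) lay at 2783, 2753 and 2671 CPM against 3006, 2898 and 2933 CPM in the controls and fell by 7.13% (-0.11, edgeR adjusted p = 1.52e-05). As a share of mitochondrial counts, complex IV mRNAs were higher, at 42.4% to 43.1% with the ITGB5 hairpin and 41.3% to 41.7% in the controls, whereas complex I mRNAs were lower, at 31.5% to 32.0% against 32.9% to 33.3%.

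ATP synthase uses the proton gradient to make ATP, and its subunits MT-ATP6 and MT-ATP8 are translated from a shared mRNA. MT-ATP6 (MT:8527-9207), which forms the proton channel with the rotor ring, lay at 2455, 2435 and 2476 CPM with the ITGB5 hairpin and at 2876, 2766 and 2708 CPM in the controls. It fell by 11.8% with no overlap (-0.18, SE 0.019, edgeR adjusted p = 4.35e-11). MT-ATP8 (MT:8366-8572) had far fewer counts and did not pass, at 61.7, 53.8 and 59.0 CPM against 61.1, 67.0 and 60.3 CPM (-0.11, 95% interval -0.22 to -0.0027, edgeR adjusted p = 0.183). The ratio of MT-ATP6 to MT-ATP8 counts overlapped between the groups, at 39.8 to 45.3 with the ITGB5 hairpin and 41.3 to 47.1 in the controls. In contrast, the ratio of MT-ATP6 to MT-CO2, the mRNA upstream of the pair, was 0.711 to 0.730 with the ITGB5 hairpin and 0.789 to 0.820 in the controls, with no overlap.

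Counts of the rRNAs moved in opposite directions although their genes are neighbours on the heavy strand, separated only by MT-TV. The rRNAs took 0.370% of all counts with the ITGB5 hairpin and 0.363% in the controls, beside 2.89% and 3.12% for mRNAs (group means). Whether RNA selection in library making kept the same part of each rRNA in every library was not tested. MT-RNR1 (MT:648-1601), the rRNA of the small ribosomal subunit, lay at 525.0, 521.5 and 547.8 CPM with the ITGB5 hairpin and at 601.6, 584.8 and 598.6 CPM in the controls. It fell by 10.7% (-0.16, SE 0.024, edgeR adjusted p = 5.39e-07). MT-RNR2 (MT:1671-3229), the rRNA of the large subunit, lay at 3208, 3072 and 3273 CPM against 3064, 3034 and 3018 CPM in the controls, a rise of 4.80% (0.068, SE 0.019, edgeR adjusted p = 0.00814). The rise of MT-RNR2 was lost without shITGB5 replicate 3 or shcontrol replicate 3 (edgeR adjusted p = 0.141 and 0.0612) and with DESeq2 (DESeq2 adjusted p = 0.0698). The ratio of MT-RNR2 to MT-RNR1 counts was 6.11, 5.89 and 5.98 with the ITGB5 hairpin and 5.09, 5.19 and 5.04 in the controls, so all 3 ITGB5 hairpin libraries were above all controls. The ratio of summed rRNA to summed mRNA counts was 0.125 to 0.131 against 0.116 to 0.117, with no overlap. This rested on MT-RNR2, since MT-RNR1 alone over mRNA was lower with the ITGB5 hairpin (log2 difference -0.055).

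Counts on tRNA genes were few and came mostly from the light strand. Of all tRNA counts, 83.0% lay on light-strand tRNAs, with MT-TC at 33.7%, MT-TN at 25.2% and MT-TP at 16.7%. The 10 tRNA genes not tested, 3 on the light and 7 on the heavy strand, had 0 to 12 counts per library. A count of 0 in these libraries still allows a level of 0.167 to 0.190 CPM (3 counts, for counting error only). The read length and fragment sizes are not stated, and whether reads on these short genes were mature tRNA or longer RNA was not tested.

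MT-TN and MT-TC, the neighbours at the light-strand origin shown above, rose. MT-TN, the asparagine tRNA, had 675, 544 and 641 counts with the ITGB5 hairpin and 514, 430 and 479 in the controls, which was 37.6, 32.9 and 36.4 CPM against 29.5, 25.6 and 30.3 CPM. Its log2 change of 0.33 was the largest among mitochondrial genes that passed (SE 0.072, edgeR adjusted p = 0.000597). MT-TC, the cysteine tRNA, had 872, 695 and 849 counts with the ITGB5 hairpin and 719, 645 and 619 in the controls, or 48.6, 42.1 and 48.2 CPM against 41.2, 38.5 and 39.2 CPM. It rose by a log2 change of 0.22 (SE 0.062, edgeR adjusted p = 0.00674), and this call was lost without shITGB5 replicate 1 or 3 (edgeR adjusted p = 0.0618 and 0.0612). For both tRNAs every ITGB5 hairpin library was above every control, though shITGB5 replicate 2 lay closer to the controls than the other two.

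The flanking tRNAs of the cluster either did not pass or were not tested. MT-TY, next to MT-TC, lay at 8.57, 6.60 and 6.53 CPM against 6.88, 7.93 and 6.58 CPM (0.022, 95% interval -0.26 to 0.31, edgeR adjusted p = 0.952), and MT-TA had 1 to 8 counts per library and was not tested. MT-TP (MT:15956-16023), the proline tRNA at the start of the light-strand transcript, did not pass, at 22.5, 19.3 and 22.2 CPM against 19.95, 21.6 and 22.1 CPM (0.011, 95% interval -0.16 to 0.18, edgeR adjusted p = 0.958). None of the 7 heavy-strand tRNAs tested passed, and their log2 changes ran from -0.41 to 0.26 at 6 to 93 counts per library. The interval of the least counted, MT-TI, ran from -0.67 to 1.2, so a change of the size seen in MT-TN was not detectable there.

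MT-TE (MT:14674-14742), the glutamate tRNA next to MT-ND6, had 31, 27 and 31 counts with the ITGB5 hairpin and 35, 31 and 37 in the controls, or 1.73, 1.63 and 1.76 CPM against 2.01, 1.85 and 2.34 CPM. All 3 ITGB5 hairpin libraries were below the controls in CPM, but MT-TE did not pass (-0.27, 95% interval -0.83 to 0.29, edgeR adjusted p = 0.611). Of the light-strand transcript, MT-TN and MT-TC rose, the mRNA MT-ND6 fell, and MT-TY, MT-TE and MT-TP did not pass. Light-strand tRNA counts over MT-ND6 counts were 0.147, 0.133 and 0.143 with the ITGB5 hairpin and 0.109, 0.105 and 0.115 in the controls, with no overlap. MT-TN over MT-ND6 was 0.0426 to 0.0463 against 0.0281 to 0.0344, and MT-TC over MT-ND6 0.0544 to 0.0599 against 0.0421 to 0.0451. Both strands held falls and rises: 9 of 21 tested heavy-strand genes fell and 1 rose, and 1 of 6 tested light-strand genes fell and 2 rose. Among all genes tested, 6.74% fell and 8.31% rose. Strand and class cannot be told apart in these counts, since 5 of the 6 light-strand genes were tRNAs, against 7 of the 21 heavy-strand genes. The ratio of all light-strand to all heavy-strand counts was 0.0290, 0.0277 and 0.0287 with the ITGB5 hairpin and 0.0295, 0.0298 and 0.0292 in the controls. It was lower in all 3 ITGB5 hairpin libraries. With MT-ND6, the most abundant light-strand gene, left out, it was higher (log2 difference 0.27).

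**Figure D3:**
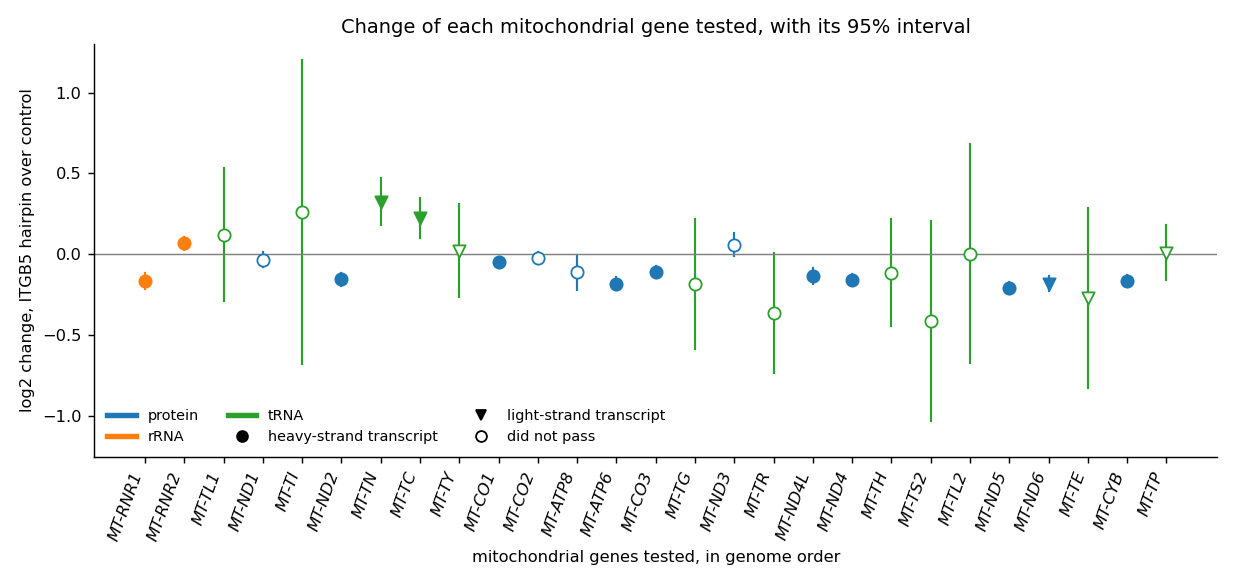
Log2 change (ITGB5 hairpin over control) of the 27 mitochondrial genes tested, in genome order, with 95% intervals from the edgeR fit; colour gives the class, circles heavy-strand and triangles light-strand transcripts, and filled symbols genes past an adjusted p of 0.05. MT-TN and MT-TC stand above 0 at 0.33 and 0.22, MT-ND5 is lowest among the mRNAs at -0.21, and most tRNA intervals are wide.

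Along the heavy-strand transcript the changes formed no even slope. The log2 change was -0.16 at MT-RNR1, 0.068 at MT-RNR2 and -0.032 at MT-ND1, then -0.15 at MT-ND2 and -0.044 at MT-CO1. Further on it was -0.024 at MT-CO2, -0.18 at MT-ATP6, -0.11 at MT-CO3 and 0.061 at MT-ND3. The last mRNAs, MT-ND4L, MT-ND4, MT-ND5 and MT-CYB, all fell, with -0.13, -0.16, -0.21 and -0.16. Over the 12 heavy-strand mRNAs, Spearman's rho between start position and log2 change was -0.53 and Pearson's r -0.38. Against length they were -0.37 and -0.38. These describe genes that share the same 6 libraries and overlap in their reads, so they carry no test. Between neighbours, MT-ND2 over MT-ND1 was 1.66 to 1.69 with the ITGB5 hairpin and 1.80 to 1.87 in the controls, and MT-CO1 over MT-ND2 was 6.04 to 6.27 against 5.62 to 5.76, so both steps lay outside the spread of the libraries.

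Levels in the libraries can be set beside each other per length, as CPM per kilobase of gene. On that scale the mRNAs and rRNAs spanned 280.9 to 5124 with the ITGB5 hairpin and 303.3 to 5282 in the controls. How RNA was selected for the libraries was not taken into account, so the ranks, rRNA against mRNA above all, need not hold in cells. MT-CO1 was highest in both groups, at 5124 ± 27.1 with the ITGB5 hairpin and 5282 ± 45.3 in the controls (SD, n = 3 each). MT-CO2 followed at 4967 ± 112 and 5051 ± 136, and the ranges of MT-CO1 and MT-CO2 touched with the ITGB5 hairpin but not in the controls. MT-ATP6, MT-CO3, MT-ND4 and MT-ND4L came next in both groups, in this order, from 3605 down to 2609 with the ITGB5 hairpin and from 4087 down to 2861 in the controls. MT-ATP8 was lowest in both, although MT-ATP6, with which it shares an mRNA, ranked 3. How reads in their shared bases were assigned is not stated. The ranks of 11 of the 15 genes were the same in both groups. The exceptions were MT-RNR2, which lay above MT-CYB with the ITGB5 hairpin (2043 ± 65.9 and 1785 ± 11.97) and overlapped with it in the controls (1949 ± 15.1 and 1999 ± 42.1), and MT-ND3 and MT-ND1. MT-ND3 and MT-ND1 had overlapping ranges with the ITGB5 hairpin, at 814.0 ± 71.6 and 799.6 ± 5.43. In the controls MT-ND1 was above MT-ND3, at 817.6 ± 8.58 and 780.6 ± 21.2.

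**Figure D4:**
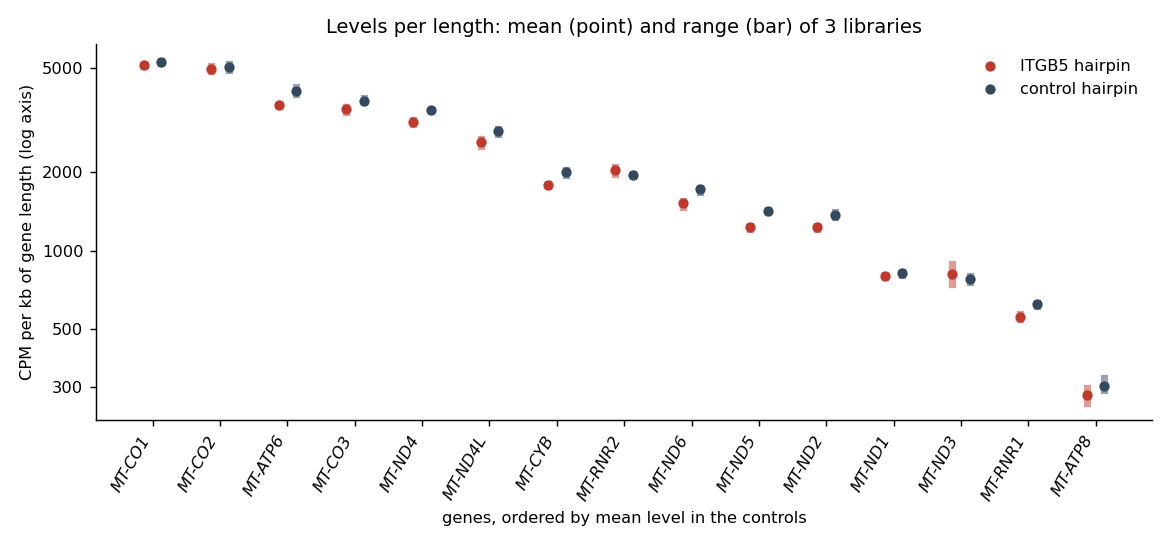
Level of the 15 mitochondrial mRNAs and rRNAs in CPM per kilobase of gene length (log axis), ordered by the control mean; points are means and bars ranges of 3 libraries per group. MT-CO1 is highest in both groups and MT-ATP8 lowest, and MT-RNR2 and MT-ND3 are the genes whose ITGB5 hairpin mean lies above the control mean.

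Nuclear DNA holds copies of mitochondrial genes, and reads can be split between a copy and its parent. The table lists 407 such copies by symbol, of which 8 could be tested. The 4 most abundant, all on chromosome 1, are 98.4% to 99.1% identical to their parent over the aligned bases of the GENCODE transcripts, so their counts are uncertain. MTATP6P1 fell, at 127.0, 112.0 and 119.0 CPM with the ITGB5 hairpin and 133.1, 130.2 and 143.1 CPM in the controls (-0.18, edgeR adjusted p = 0.000555). MTND2P28 fell too, at 80.1, 77.1 and 82.5 CPM against 96.1, 91.7 and 95.5 CPM (-0.24, edgeR adjusted p = 2.16e-05). Their parents MT-ATP6 and MT-ND2, whose log2 changes were -0.18 and -0.15, fell as well. MTND1P23 (-0.11, edgeR adjusted p = 0.315) and MTCO1P12 (0.074, edgeR adjusted p = 0.683) did not pass. The counts of these copies equalled 0.220% to 6.43% of those of their parents.

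Nuclear genes that serve the mitochondrial genome were described by 5 lists. Of their 155 genes tested, 11 rose, 6 fell and 138 did not pass, beside 15.1% of all genes tested that passed. Of 24 genes of transcription and replication of this genome, 1 rose, 1 fell and 22 did not pass (median log2 change 0.030). The 5 lists were written with earlier results of these data known. POLRMT, the RNA polymerase, lay at 96.3, 106.1 and 96.3 CPM with the ITGB5 hairpin and 97.3, 93.3 and 97.8 CPM in the controls (0.050, edgeR adjusted p = 0.516). TFAM, which packages the genome and starts transcription, lay at 110.0, 98.6 and 108.0 CPM against 112.9, 114.8 and 107.6 CPM (-0.083, edgeR adjusted p = 0.192). The groups overlapped for both. POLG2, the accessory subunit of the mitochondrial DNA polymerase, fell, at 13.2, 16.3 and 15.3 CPM against 22.1, 18.7 and 19.6 CPM (-0.43, edgeR adjusted p = 0.000496). ATAD3B, a membrane ATPase linked to the nucleoid, rose (0.21, edgeR adjusted p = 0.000297).

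Of 43 genes that cut, modify, stabilise or degrade mitochondrial RNA, 2 rose, 2 fell and 39 did not pass (median log2 change -0.036). TRIT1, which modifies the anticodon loop of some cytosolic and mitochondrial tRNAs, fell most, at 15.6, 14.6 and 13.9 CPM with the ITGB5 hairpin and 23.3, 23.0 and 24.2 CPM in the controls (-0.67, SE 0.088, edgeR adjusted p = 1.62e-08). The groups were far apart. SLIRP, the partner of LRPPRC in holding mitochondrial mRNAs, rose (0.26, edgeR adjusted p = 0.0148), and RPUSD4, a pseudouridine synthase of the large-subunit rRNA, rose (0.26, edgeR adjusted p = 0.0227). ERAL1, a chaperone of the small-subunit rRNA, fell (-0.13, edgeR adjusted p = 0.0463) although its groups overlapped. SLIRP was lost without shITGB5 replicate 3, shcontrol replicate 1 or shcontrol replicate 2 (edgeR adjusted p = 0.0535, 0.0818 and 0.0828). RPUSD4 was lost without shITGB5 replicate 1, shITGB5 replicate 3 or shcontrol replicate 2 (0.136, 0.0525 and 0.102), and ERAL1 without any library except shITGB5 replicate 2 (0.0876 to 0.348). ERAL1 was also lost with DESeq2 (DESeq2 adjusted p = 0.104) and with no filter on low counts (edgeR adjusted p = 0.0636). SLIRP overlaps the oppositely transcribed SNW1, which had 218% as many counts, RPUSD4 overlaps FAM118B and ERAL1 overlaps FAM222B.

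Of 23 mitochondrial aminoacyl-tRNA synthetase and amidotransferase genes, which charge the tRNAs, 2 rose, 2 fell and 19 did not pass (median 0.018). KARS, the lysyl-tRNA synthetase of both cytosol and mitochondria, rose (0.15, edgeR adjusted p = 0.000247), and PARS2, the prolyl-tRNA synthetase, rose (0.37, edgeR adjusted p = 0.0253) with overlapping groups. GATC, of the amidotransferase that makes glutaminyl-tRNA, fell (-0.34, edgeR adjusted p = 0.00738), as did HARS2, the histidyl-tRNA synthetase (-0.16, edgeR adjusted p = 0.0269). PARS2 was lost without shITGB5 replicate 2, shcontrol replicate 1 or shcontrol replicate 2 (0.139, 0.233 and 0.105), and with DESeq2 (DESeq2 adjusted p = 0.0523). GATC was lost without shcontrol replicate 1 or 3 (0.0521 and 0.0864), and HARS2 without any library except shcontrol replicate 3 (0.0509 to 0.161) and with no filter (0.0634). GATC overlaps the oppositely transcribed SRSF9, which had 556% as many counts. HARS2 overlaps HARS and ZMAT2, and KARS overlaps TERF2IP.

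Of 16 nuclear regulators of mitochondrial biogenesis, 2 rose and 14 did not pass (median 0.028). ESRRA, a nuclear receptor that drives respiratory genes, lay at 68.5, 73.9 and 72.5 CPM with the ITGB5 hairpin and 59.9, 54.4 and 60.4 CPM in the controls (0.30, edgeR adjusted p = 6.65e-06). It overlaps the oppositely transcribed TRMT112, which had 115% as many counts. MYC rose (0.21, edgeR adjusted p = 0.00606) but not without shITGB5 replicate 2 or shcontrol replicate 1 (0.0982 and 0.131). Of 49 genes that assemble or insert the mitochondrially encoded proteins, 4 rose, 1 fell and 44 did not pass (median 0.025). COX17, a copper chaperone for complex IV, rose (0.29, edgeR adjusted p = 2.53e-05), as did UQCC3, a complex III assembly factor (0.33, edgeR adjusted p = 0.0330), COX10, a heme synthesis enzyme for complex IV (0.16, edgeR adjusted p = 0.0436), and AFG3L2, a subunit of the inner-membrane protease (0.15, edgeR adjusted p = 0.00966). SPG7, the partner of AFG3L2, named after its value was seen, fell (-0.15, edgeR adjusted p = 0.000354). UQCC3 was lost without shITGB5 replicate 1 or 2 and without shcontrol replicate 1 or 3 (0.0709 to 0.131), COX10 without any library except shITGB5 replicate 3 (0.0501 to 0.211), and AFG3L2 without shITGB5 replicate 2 or shcontrol replicate 2 (0.0592 and 0.0736). COX10 was also lost with the replicate block (0.0586), with no filter (0.0548) and with DESeq2 (DESeq2 adjusted p = 0.0605), and UQCC3 with no filter (0.0563). AFG3L2 overlaps TUBB6, which had 137% as many counts, and UQCC3 overlaps LBHD1.

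**Figure D5:**
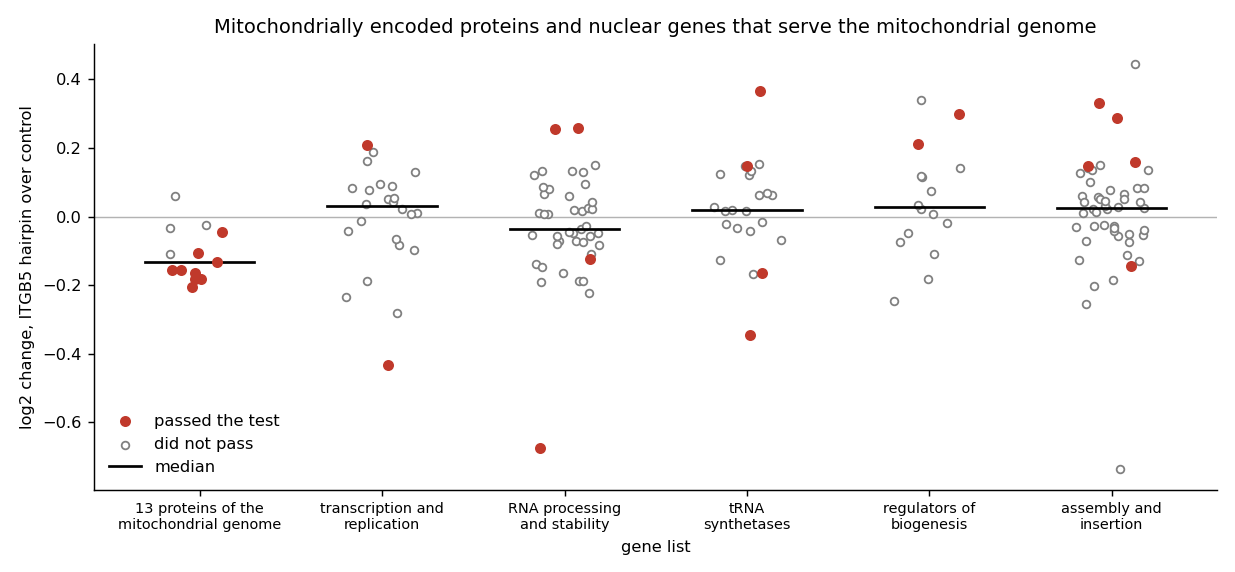
Log2 change (ITGB5 hairpin over control) of the 13 mitochondrially encoded mRNAs and of 155 nuclear genes in 5 lists; filled red points passed an adjusted p of 0.05, open points did not, and lines are medians. The mRNAs have a median of -0.13, and the medians of the 5 nuclear lists lie between -0.036 and 0.030.

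Few of the mitochondrial changes could be shown to exceed a small fold. Against a minimum change of 1.1-fold, 2 of 27 mitochondrial genes passed: MT-ND5 (edgeR adjusted p = 0.00265) and MT-TN (edgeR adjusted p = 0.0369). Across the table, 646 of 16577 genes passed against this fold, so few passed there too. Estimates of other called genes lay above 1.1-fold but did not pass, such as MT-TC at 1.17-fold (edgeR adjusted p = 0.288) and MT-ATP6 at 1.13-fold (edgeR adjusted p = 0.0748). With mitochondrial genes left out of the library scaling, all 13 calls were kept.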

How the data were processed

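The authors deposited whole-number counts per gene in a table named for FPKM, and the values were analysed as raw counts. The sources used here do not give the aligner, counter or strand setting. Column codes S and NC were taken to mean the ITGB5 hairpin and the control, with the numbers of the sample titles; no label spells the codes out. Members are all rows on chromosome MT. Members, gene lists and tests were chosen with earlier results of these data known.

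The planned test, edgeR 4.0.16 (R 4.3.3), was used: filterByExpr, TMM factors of 0.998 to 1.00, and the quasi-likelihood test on the 2 groups, two-sided, Benjamini-Hochberg adjusted over 16577 genes. SE is the log2 change over the root of F. CPM values use TMM-scaled totals. Shares and ratios are of raw counts, with no test, since they sum chosen members. Replicate pairs differed beyond counting noise (chi-square per degree of freedom 2.02 to 2.32), so all 6 libraries were kept.

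Named genes were all mitochondrial mRNAs and rRNAs, tRNAs that passed or held at least 10% of tRNA counts, POLRMT, TFAM, up to 4 called genes per list, and the 4 most abundant nuclear copies. Alternatives were other scalings and filters, DESeq2 1.42.0, limma 3.58.1 with voom, a minimum fold, leaving out each library, and the replicate number as a block.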

Additional observations from a re-analysis of the deposited data

How the results depend on the processing

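The 13 mitochondrial calls (3 rises, 10 falls) were the same genes with RLE factors, library totals, mitochondrial genes left out of the scaling, a mean count of at least 50 and limma with voom. MT-CO1 was lost with no filter on low counts and MT-RNR2 with DESeq2, leaving 12 each, and against a fold of 1.1 only 2 mitochondrial and 646 of all genes passed, by construction. For the other settings the cause was not tested. Leaving out 1 library gave 10 to 14 mitochondrial calls, 1939 to 2183 calls over all genes, and -0.29 to -0.25 for ITGB5. None of the 13 calls changed direction. Values that did not pass with all 6 libraries did: MT-ND3, which passed as a rise without shITGB5 replicate 2 (0.12), became -0.0048 without shITGB5 replicate 3, and MT-TP became -0.030 and -0.018 without shITGB5 replicates 1 and 3 and -0.034 without shcontrol replicate 1 (range -0.034 to 0.075). The log2 difference of the mitochondrial share, -0.095, was -0.11 among protein-coding genes only and -0.10 to -0.086 with 1 library left out. The light-to-heavy ratio, -0.051, became 0.27 without MT-ND6 (-0.066 to -0.031 with 1 library left out), and the rRNA-to-mRNA ratio, 0.14, became -0.055 without MT-RNR2 (0.12 to 0.16). The tRNA-to-mRNA ratio, 0.23, ran from 0.19 to 0.29. Deviations of libraries that share a number correlated at 0.028, -0.000125 and -0.0174, so the numbers were not taken as pairs. The replicate block called 12 mitochondrial genes, without MT-CO1, and 2303 genes in all. The filter on low counts left out 10 of 22 tRNAs, and with no filter all 37 mitochondrial genes were tested and none of these 10 passed.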
